A study of Mus musculus with 20 samples.

Results

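The 10 genes described here are markers of GABAergic interneurons, the inhibitory nerve cells of the hippocampus: Gad1, Gad2, Slc32a1, Pvalb, Sst, Vip, Npy, Cck, Reln and Calb2. They were chosen by name from the 48709 genes of the deposited count table, and each symbol matched 1 gene. All 10 were among the 19797 genes that passed the filter on low counts. RNA of the right hippocampus was sequenced from 20 young adult C57BL/6 mice (C57BL/6J in the methods of the study), with 5 samples in each of 4 groups, made of both sexes and of both exposures (control or nPM). nPM is nanosized particulate matter collected from urban air. Pregnant dams inhaled it on 3 days of each week, 5 h at a time, from gestational day 2 until birth, while dams of the control groups inhaled filtered air in the same way. Females were 17.71 to 18.29 weeks old and males 18.57 to 19.14 weeks, so that age and sex cannot be told apart in any comparison of males with females. Male offspring were also injected with EdU, a label of dividing cells, before tissue was taken, per the methods of the study. The methods add, in that passage on males, that all animals were injected because samples were few. Read this way, the sequenced males had been injected, and this treatment cannot be told apart from sex either. The labels do not name it. The offspring came from several litters per exposure, and the labels do not tie a sample to a litter, so some samples may be littermates while the tests treat them as independent.

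Interneurons make GABA from glutamate with the enzymes GAD67 and GAD65, encoded by Gad1 and Gad2, and load it into synaptic vesicles with the transporter VGAT, encoded by Slc32a1. These genes are shared by nearly all interneurons, whereas calcium-binding proteins (Pvalb, Calb2), neuropeptides (Sst, Vip, Npy, Cck) and the secreted glycoprotein reelin (Reln) mark subtypes such as fast-spiking basket cells, dendrite-targeting cells and interneurons that inhibit other interneurons. Several of the subtype genes are not restricted to interneurons: Cck is also made by pyramidal cells, Calb2 by mossy cells of the dentate gyrus, and Calb2 and Reln by Cajal-Retzius cells. In RNA of whole tissue, fewer cells of a type and less RNA per cell cannot be told apart.

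The depth and the dissection bear on all values below. Reads counted on genes numbered 19092067 to 38663408 per sample (median 29468930). Of the defining markers of the labelled tissue none was absent, and all 18 genes of a list for the CA fields and the dentate gyrus passed the filter, with summed levels of 1102 to 2274 CPM (a count of reads relative to the library size after TMM scaling). Passing the filter does not set the hippocampus apart, since all 11 thalamic, 10 neocortical and 12 choroid plexus genes and 13 of 14 striatal genes passed it too, at levels that differed between samples. The mean log2 CPM of 11 thalamic genes was between 3.02 and 4.43, highest in control females 3 and next in nPM males 1. In nPM males 1 the thalamic transcription factor Tcf7l2 was at its highest level (12.6 CPM) and the glutamate transporter Slc17a6 at 147 CPM. Control females 3 had 10.7 CPM of Tcf7l2 but only 42.1 CPM of Slc17a6. The thalamic gene Zic1 was at 115 CPM in control females 3, 51.7 CPM in nPM males 1 and 117 CPM in control males 4. Samples thus differed in which thalamic genes were high. The mean log2 CPM of 13 striatal genes was 4.59 in nPM females 1 and 1.61 to 3.11 in the other samples. The choroid plexus gene Ttr, a carrier of thyroid hormone, ranged from 10.7 to 7409 CPM. Control females 3, nPM males 1 and nPM females 1 are therefore named below where they touch a result, and each comparison was repeated without them, a choice made after the values had been seen. Control males 4 was close to nPM males 1 in the mean of the thalamic genes (4.12 and 4.21) and was kept.

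Levels per kilobase of gene length placed the neuropeptide genes Cck and Sst first. RPKM (CPM per kilobase of the deposited gene length) averaged 121 ± 22.1 (SD, n = 20) for Cck and 78.5 ± 16.6 for Sst, and Cck was above Sst, and Sst above Gad1, in 20 of 20 samples. Gad1 (42.0 ± 5.62), Npy (39.6 ± 8.13) and Gad2 (32.4 ± 5.84) followed. Gad1 exceeded Npy in only 11 of 20 samples, so this pair did not differ beyond the spread, while Npy exceeded Gad2 in 17 and Gad2 exceeded Pvalb in 17 samples. Pvalb, the calcium buffer of fast-spiking basket and axo-axonic cells, was at 26.7 ± 5.11 RPKM and above Vip in 20 of 20 samples. Vip (13.1 ± 5.16), Calb2 (11.8 ± 6.95) and Slc32a1 (9.97 ± 2.14) overlapped, with Vip above Calb2 in 10 of 20 samples and Calb2 above Slc32a1 in 12. Reln was lowest, at 6.94 ± 1.27 RPKM, and below Slc32a1 in 18 of 20 samples. Among the 19797 genes kept, Cck was higher than 98.9% and Reln than 67.0%. This order depends on the gene model for some members. The later annotation Gencode M21 gives Cck 1305 exonic bases where the deposited table has 685, Sst 721 against 599 and Vip 3402 against 1527. With those lengths, added after the values had been seen, Cck averaged 63.7 RPKM and Sst 65.2, Sst exceeded Cck in 11 of 20 samples, and Vip took the last place with 5.87 RPKM.

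**Figure D1:**
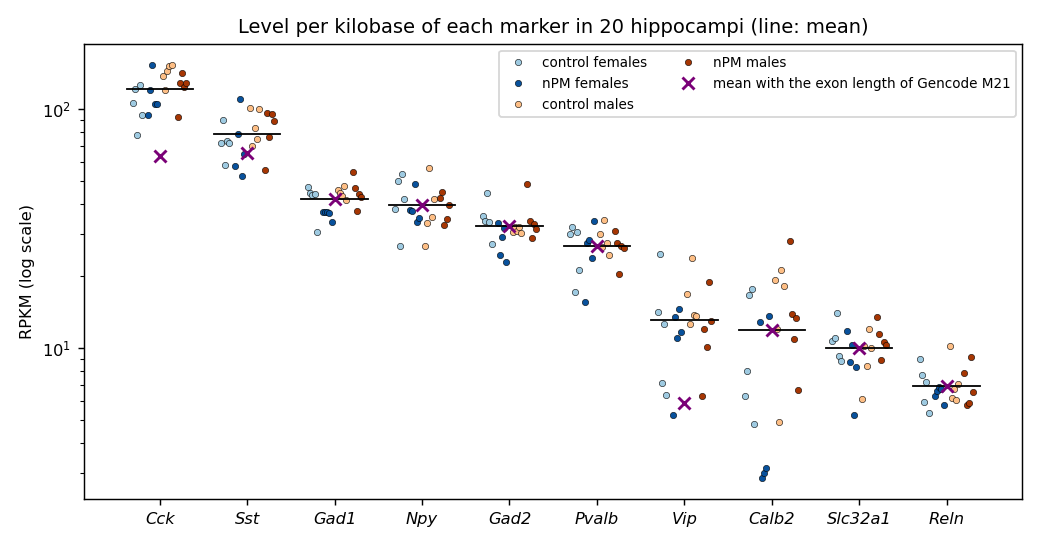
RPKM on a log axis for each marker, ordered by the mean over 20 samples (black line), with 1 point per sample colored by group. Crosses mark the mean when the exon length of Gencode M21 is used, which lowers Cck from 121 to 63.7 and Vip from 13.1 to 5.87 RPKM and leaves most other markers in place.

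Gestational nPM changed none of the 10 markers at the study's threshold of p under 0.005 in limma-voom. This held for exposure with sex as a covariate, for males, for females and for the difference of the nPM effect between the sexes. The count was also 0 of 10 with the edgeR quasi-likelihood test and with the DESeq2 Wald test in each of these 4 fits. Over all 19797 genes, 0.141% passed with sex as a covariate, 0.207% in males, 0.0859% in females and 0.217% for the difference between the sexes. At an unadjusted p under 0.05, 0 of 10 markers passed in limma with sex as a covariate (all genes: 2.10%) and 0 of 10 in males (4.28%), whereas Gad2 alone passed in females (1 of 10, all genes 2.00%) and for the difference between the sexes (1 of 10, all genes 3.79%). Adjusted p-values of limma were 0.963 or above for every marker in these fits, and no gene of the whole table had one under 0.05. All 10 log2 fold changes were below 0 with sex as a covariate, with a median of -0.07 beside -0.0059 over all genes. In females 9 of 10 were below 0 (median -0.14, all genes -0.01), and in males 6 of 10 (median -0.05, all genes -0.0013). With sex as a covariate, the smallest unadjusted limma p was 0.170 (Vip). In that fit Slc32a1, Pvalb, Sst, Npy and Cck each changed sign in 1 or more fits with 1 sample left out, Slc32a1 in 8 of 20. The nPM and control groups of a sex overlapped for every marker, beside 0.662% of all genes without overlap in males and 0.349% in females.

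**Figure D2:**
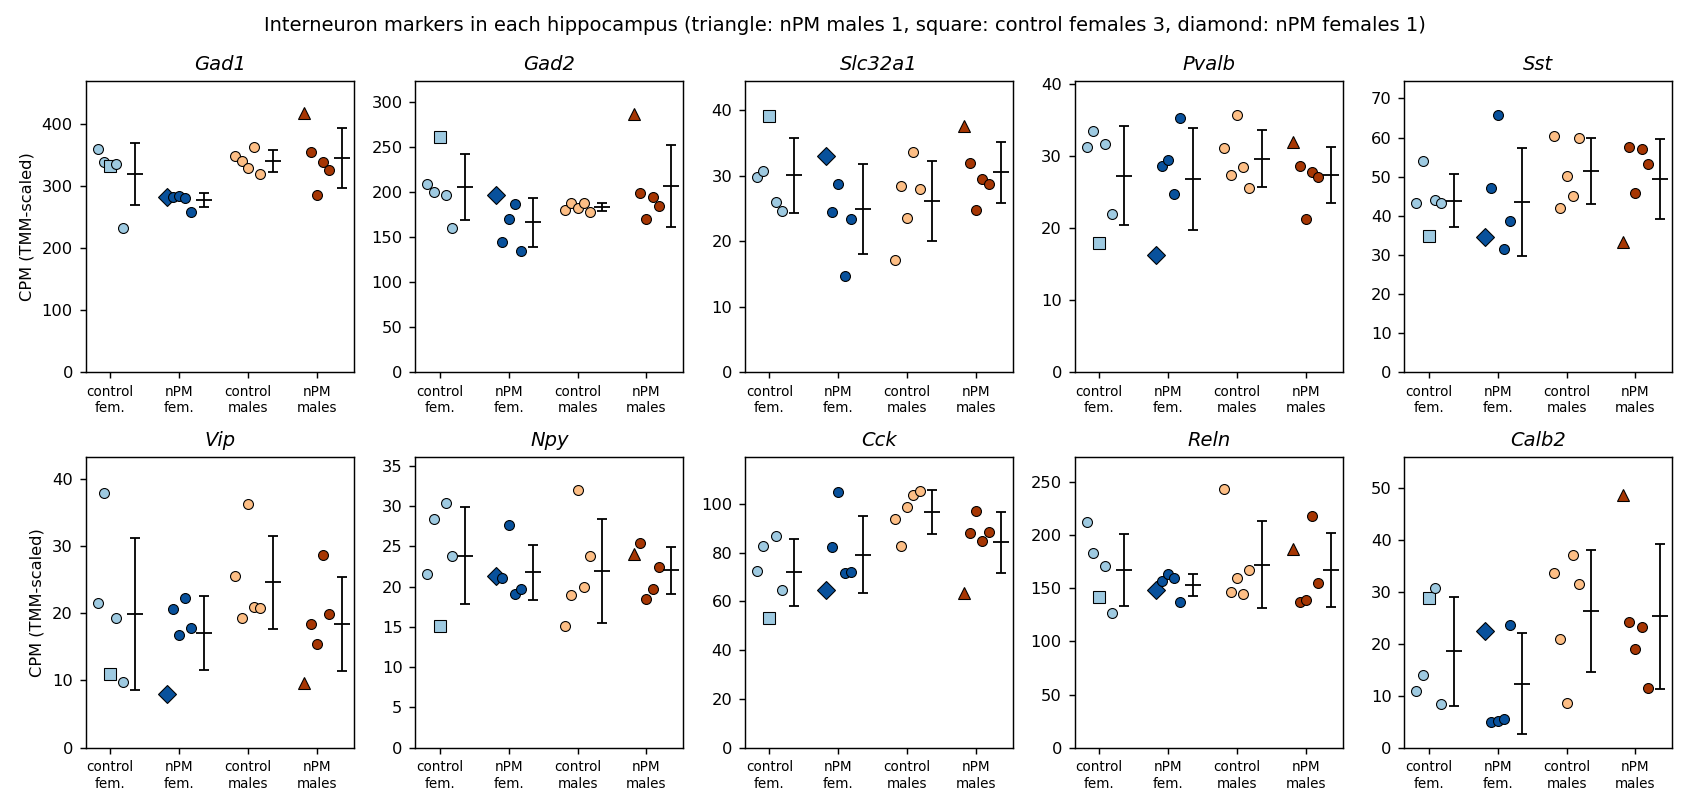
CPM of each marker in each of the 20 hippocampi by group, with the group mean and SD (n = 5) beside the points. The triangle (nPM males 1) is the highest sample for Gad1, Gad2 and Calb2, and the diamond (nPM females 1) the lowest for Vip and Pvalb, while the groups overlap in every panel.

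Among the genes of GABA synthesis, Gad1 (GAD67, which supplies most of the GABA of the cell; chromosome 2, 70553072 to 70602014, mm10) was measured from 5121 to 15755 counts per sample. Levels of Gad1 in control females 1 to 5 were 360, 339, 333, 336 and 233 CPM, and in nPM females at 283, 283, 284, 280 and 258 CPM. The nPM females thus lay close together and below 4 of the 5 control females, while control females 5 was the lowest of all 20 samples. In males, control samples 1 to 5 had Gad1 levels of 349, 341, 330, 363 and 319 CPM and nPM samples 418, 356, 285, 339 and 326 CPM, with groups that overlapped. With nPM, the limma log2 fold change of Gad1 was -0.19 in females (SE 0.11, 95% interval -0.42 to 0.04) and 0.01 in males (SE 0.089). An exact permutation test within a sex, two-sided, gave p = 0.190 in females and 0.921 in males, beside unadjusted limma values of 0.0994 and 0.924 (n = 5 per group, smallest possible exact p 0.00794). Whether Gad1 passed depended on 1 library. Without control females 5, Gad1 was lower by 0.30 in nPM females with an unadjusted limma p of 0.000764, past the threshold of 0.005. In that fit 29 of 19797 genes passed this threshold and 0 had a limma adjusted p under 0.05. The sample left out was the lowest control, so that its removal alone moves the estimate further below 0. Without any other female, p stayed above 0.005.

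Gad2 (GAD65, the GAD form anchored at synaptic vesicles; chromosome 2, 22622205 to 22693874) had the smallest p of the markers for the difference of the nPM effect between the sexes, although the estimates of Calb2 (0.67, SE 0.74) and Slc32a1 (0.50, SE 0.27) were larger. Control females 1 to 5 had 209, 200, 261, 197 and 160 CPM, and nPM females 197, 144, 170, 187 and 134 CPM. All nPM females lay below control females 1, 2, 3 and 4, the last by less than 1 CPM, and overlapped with control females 5. Control males 1 to 5 had 180, 188, 182, 188 and 178 CPM, a range narrower than in any other group, and nPM males had 286, 199, 170, 195 and 185 CPM. The value of 286 CPM came from nPM males 1 and the value of 261 CPM from control females 3, the samples highest in thalamic genes. The 11 thalamic genes, none of them at 0 in any sample, had summed levels of 242 to 471 CPM in control females, 227 to 292 CPM in nPM females, 268 to 419 CPM in control males and 275 to 470 CPM in nPM males. The log2 fold change with nPM was above 0 for 1 of the 11 in females (median -0.25) and for 8 of the 11 in males (median 0.21). In either sex, 0 of 11 passed a limma p of 0.005. At an unadjusted limma p under 0.05, Zic1 was lower in females and Plekhg1 higher in males, and Zic1 passed for the difference of the effects. Each was 1 of 11, beside 2.00% of all genes in females, 4.28% in males and 3.79% for the difference. The part of the thalamic genes in the values of Gad2 was not tested. In limma, Gad2 differed by -0.30 in females (SE 0.14, 95% interval -0.60 to -0.01) and by 0.15 in males (SE 0.12). The exact permutation test gave p = 0.0873 in females and 0.302 in males, beside unadjusted limma values of 0.0465 and 0.213 (n = 5 per group). The difference between these effects was 0.45 (SE 0.19, 95% interval 0.06 to 0.85, limma adjusted p = 0.987, unadjusted 0.0260). Without control females 3, nPM females 1 and nPM males 1 this difference was 0.30 and the change in females -0.28, with unadjusted limma p-values of 0.0403 and 0.0495. In females the p of Gad2 was above 0.05, at 0.0603 to 0.127, without any one of control females 1, 2, 3 or 4 or nPM females 2, 3 or 5 (limma). For the difference between the sexes it was 0.0511 to 0.0588 without any one of control females 3, nPM females 2, nPM females 5 or nPM males 1 (limma).

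Slc32a1 (VGAT; chromosome 2, 158610767 to 158615748) followed the same direction with a larger spread. Across control females 1 to 5 it was at 29.8, 30.8, 39.2, 25.9 and 24.6 CPM, and in nPM females at 33.1, 24.5, 28.8, 14.7 and 23.3 CPM. Across control males 1 to 5 it was at 17.2, 28.4, 23.6, 33.7 and 27.9 CPM, and in nPM males at 37.6, 31.9, 24.8, 29.5 and 28.7 CPM. The highest samples were control females 3 and nPM males 1, and groups overlapped in both sexes. On the log2 scale Slc32a1 differed by -0.28 in females (SE 0.19), by 0.23 in males (SE 0.16) and by 0.50 for the difference of these effects (SE 0.27, 95% interval -0.05 to 1.06, limma adjusted p = 0.987). In the exact permutation test p was 0.222 in females and 0.246 in males (n = 5 per group). In Gencode M21, 697 of its 2797 exonic bases (24.9%) are shared with Gm14205 on the opposite strand, and since the sources used here do not state whether strand was used in counting, reads of the pair may be mixed in its count.

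The calcium-binding markers differed mostly in how variable they were. Pvalb ranged from 16.2 to 35.8 CPM over all samples, with group means of 26.9 to 29.7 CPM, and nPM changed it by -0.03 in females (SE 0.22) and -0.11 in males (SE 0.12) on the log2 scale, both within their error (exact permutation p = 0.921 and 0.405, n = 5 per group). Its lowest samples were nPM females 1 and control females 3, at 16.2 and 17.9 CPM.

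Calb2 encodes calretinin, the marker of interneurons that contact other interneurons. In control females 1 to 5 it was at 10.9, 13.9, 28.9, 30.7 and 8.36 CPM, and in nPM females at 22.4, 4.96, 5.21, 5.48 and 23.7 CPM. In control males 1 to 5 it was at 33.7, 20.9, 8.53, 37.1 and 31.6 CPM, and in nPM males at 48.7, 24.3, 18.9, 23.3 and 11.6 CPM. The levels were widely spread within each group, and 3 of the 5 nPM females (2, 3 and 4) lay below all control females. The log2 fold change in females was -0.73 with a wide interval (SE 0.52, 95% interval -1.87 to 0.40, exact permutation p = 0.262, n = 5 per group). In males it was -0.07 (SE 0.42, exact permutation p = 0.929). The mean log2 CPM of the thalamic genes in nPM females 1 to 5 was 3.80, 3.47, 3.25, 3.02 and 3.85, beside 3.63 to 4.43 in control females. That of the striatal genes was 4.59, 1.93, 1.83, 1.61 and 2.48, beside 2.22 to 2.74 in control females. The part of neighboring tissue in the values of Calb2 was not tested.

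Among the neuropeptide genes, Sst encodes somatostatin, of cells that inhibit the distal dendrites of pyramidal cells. Somatostatin RNA of control females 1 to 5 was at 43.1, 54.0, 34.8, 44.0 and 43.2 CPM, and in nPM females at 34.5, 47.1, 65.9, 31.5 and 38.7 CPM. That of control males 1 to 5 was at 60.3, 41.9, 50.1, 44.9 and 59.9 CPM, and in nPM males at 33.2, 57.5, 45.7, 57.1 and 53.2 CPM. The groups overlapped throughout, and the nPM effect was -0.04 in females (SE 0.18) and -0.08 in males (SE 0.16, exact permutation p = 0.794 and 0.738, n = 5 per group). These small estimates changed sign with the libraries used, since without nPM males 1 the effect in males was 0.06.

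Cck encodes cholecystokinin, of basket cells that carry cannabinoid receptors. Cck levels of control females 1 to 5 were 72.4, 82.8, 53.3, 86.9 and 64.5 CPM, and those of nPM females 64.7, 82.3, 105, 71.8 and 71.9 CPM. Cck levels of control males 1 to 5 were 93.9, 82.7, 98.7, 104 and 105 CPM, and those of nPM males 63.5, 88.1, 96.9, 84.9 and 88.3 CPM. Cck was lower in nPM males by 0.21 on the log2 scale (SE 0.11, 95% interval -0.45 to 0.03, exact permutation p = 0.103, n = 5 per group), which did not pass, and this estimate was -0.11 without nPM males 1. In females the estimate was 0.14 (SE 0.15, exact permutation p = 0.5, n = 5 per group), and the difference between the sexes was -0.35 (SE 0.20, limma adjusted p = 0.987).

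Vip encodes vasoactive intestinal peptide, of interneurons that mainly inhibit other interneurons. Females of the control group (1 to 5) had Vip at 21.6, 37.8, 10.9, 19.3 and 9.74 CPM, and in nPM females at 8.03, 20.6, 16.8, 22.2 and 17.7 CPM. Males of the control group (1 to 5) had it at 25.6, 19.3, 36.3, 20.9 and 20.8 CPM, and in nPM males at 9.60, 18.3, 15.4, 28.7 and 19.8 CPM. Of the nPM males, 3 lay below all control males, and the lowest of them was again nPM males 1. The fold change in males was -0.46 (SE 0.26, 95% interval -1.02 to 0.10, exact permutation p = 0.183, n = 5 per group), and -0.24 without nPM males 1. In females it was -0.17 (SE 0.36, exact permutation p = 0.746, n = 5 per group).

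Npy and Reln had nPM effects within their error. Npy, an inhibitory peptide of neurogliaform and somatostatin cells, ranged from 15.1 to 32.0 CPM with group means of 21.8 to 23.8 CPM, and its nPM effect was -0.09 in females (SE 0.18) and 0.04 in males (SE 0.17, exact permutation p = 0.635 and 0.889, n = 5 per group). Reln ranged from 127 to 243 CPM with group means of 153 to 172 CPM. The nPM effect on Reln was -0.10 in females (SE 0.13) and -0.04 in males (SE 0.16, exact permutation p = 0.484 and 0.833, n = 5 per group).

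**Figure D3:**
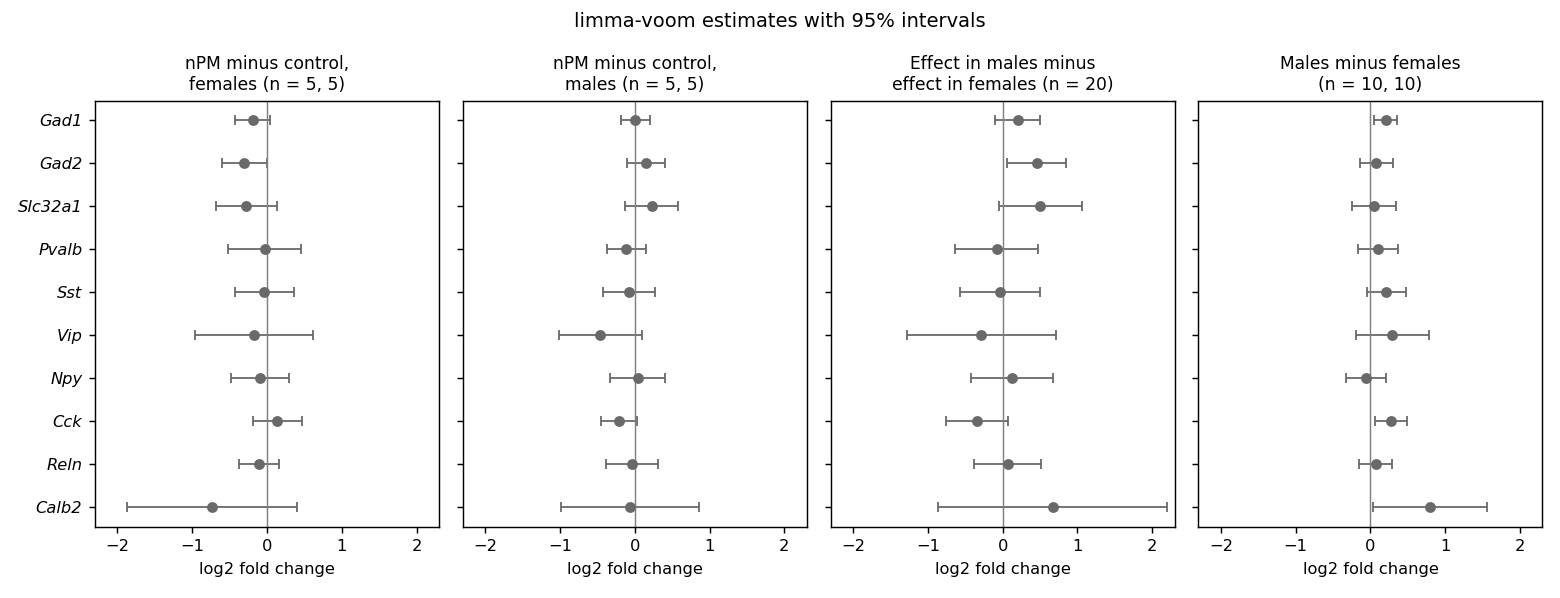
log2 fold changes from limma-voom with 95% intervals for each marker, for nPM against control in females and in males, for the difference of these effects, and for males against females. In the first 3 panels only the intervals of Gad2 in females (-0.60 to -0.01) and of Gad2 in the difference (0.06 to 0.85) leave out 0, and in the last panel those of Gad1, Cck and Calb2.

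Between the sexes, which also differed in age and, if the methods are read as above, in EdU injection, Gad1 and Cck were higher in males. At a limma adjusted p under 0.05, 2 of 10 markers passed, a smaller share than the 40.4% of all genes tested. Both were higher in males, a share close to the 18.8% of all genes that were higher (21.6% were lower). In 10 females Gad1 had a lowest, median and highest level of 233, 284 and 360 CPM, and in 10 males of 285, 340 and 418 CPM. It was higher in males by 0.20 on the log2 scale (SE 0.073, 95% interval 0.05 to 0.35, limma adjusted p = 0.0317). Cck had a lowest, median and highest level of 53.3, 72.2 and 105 CPM in females and 63.5, 91.1 and 105 CPM in males, a difference of 0.27 (SE 0.10, 95% interval 0.06 to 0.49, limma adjusted p = 0.0419). Males and females overlapped for both genes. Calb2 differed by 0.80 (SE 0.37, limma adjusted p = 0.0879) and Sst by 0.21 (SE 0.13, limma adjusted p = 0.185), and neither passed. The other 6 markers had estimates from -0.06 to 0.29, all with limma adjusted p of 0.344 or above.

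Both calls lay near the threshold. The adjusted p of Gad1 rose above 0.05 in limma, to between 0.0502 and 0.0610, when any of control females 5, control males 4, nPM females 5, nPM males 1 or nPM males 2 was left out. For Cck, 13 of the 20 fits with 1 sample left out gave a limma adjusted p of 0.0530 to 0.0846, namely those without control females 1, 3 or 5, control males 1, 3, 4 or 5, nPM females 1, 4 or 5, or nPM males 2, 3 or 5. Without nPM females 3, Sst passed (limma adjusted p = 0.0422), and without control females 4 or control males 3 Calb2 did (limma adjusted p = 0.0482 and 0.0206). Without control females 3, nPM females 1 and nPM males 1, the limma adjusted p was 0.0698 for Gad1, 0.0307 for Cck and 0.0566 for Calb2. Genes of other cell types differed as well, beside 40.4% of all genes (18.8% higher in males). Of 6 astrocyte genes, 4 were higher in males and 1 lower at a limma adjusted p under 0.05, among them Aqp4 (0.44) and Gja1 (0.29), with summed levels of 5349 to 6422 CPM in females and 4881 to 6179 CPM in males. Of 6 microglial genes, 3 were higher and 0 lower, among them P2ry12 (0.50), with summed levels of 209 to 318 CPM in females and 270 to 318 CPM in males. Of 6 oligodendrocyte genes, all had estimates above 0 (median 0.22) and 1 passed, with summed levels of 2860 to 4166 CPM in females and 2337 to 5455 CPM in males. All 12 choroid plexus genes had estimates above 0 (median 1.24) and 0 passed, with summed levels of 49.6 to 8529 CPM in females and 36.8 to 7553 CPM in males. Of the regional lists, 2 of 18 hippocampal field genes and 1 of 13 striatal genes were lower in males, 1 of 10 neocortical genes was higher, and 0 of 11 thalamic genes passed. The part of cell composition in the differences of Gad1 and Cck was not tested.

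Within groups, the markers varied more between animals than most genes of the same abundance. The coefficient of variation (CV) of CPM within groups was 60.1% for Calb2 and 40.3% for Vip, above that of 99.0% and 97.6% of genes with a mean CPM within 2-fold, whose median CV was 11.8% and 11.9%. Gad1 was the steadiest marker with a CV of 10.95%, above 60.2% of comparable genes. The other 7 markers had CVs of 16.3% to 22.0%, above those of 86.9% to 93.5% of comparable genes. The part of the CV that counting noise gives at these depths was 1.05% to 5.39%. Without control females 3, nPM males 1 and nPM females 1, the CV of Gad2 was 10.2% in place of 16.4%, that of Vip 33.7% and that of Calb2 62.5%.

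These 3 libraries also ordered the markers against each other. nPM males 1 was the highest of 20 samples for Gad1, Gad2 and Calb2 and ranked 19 of 20 for Sst, Vip and Cck. Control females 3 was the highest for Slc32a1, ranked 2 for Gad2, and was the lowest for Npy and Cck. nPM females 1, the sample high in striatal genes, was the lowest for Vip and Pvalb.

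Regulatory sequences just before the transcription starts of markers with a matching motif are shown here as a description. A script read the 100 bases before each RefSeq start (build GRCm38.p6), which was found for 9 of the 10 markers. The sequences shown are those of Sst, Cck, Vip and Gad2, while the peptide gene Npy had no match. Capitals mark the cyclic AMP response element TGACGTCA or its core (TGACG, or CGTCA on the other strand), to which the activity-regulated factor CREB is known to bind. The full element is its own reverse complement and contains the core on both strands.
Sst (chr16:23890845-23890944, minus strand): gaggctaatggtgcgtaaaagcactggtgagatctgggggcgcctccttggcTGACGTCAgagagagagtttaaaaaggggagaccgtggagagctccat
Cck (chr9:121495695-121495794, minus strand): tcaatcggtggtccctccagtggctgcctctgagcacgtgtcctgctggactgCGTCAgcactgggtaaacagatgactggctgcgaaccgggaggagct
Vip (chr10:5639118-5639217, plus strand): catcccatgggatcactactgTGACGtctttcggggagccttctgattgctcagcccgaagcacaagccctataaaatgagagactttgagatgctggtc
Gad2 (chr2:22622227-22622326, plus strand): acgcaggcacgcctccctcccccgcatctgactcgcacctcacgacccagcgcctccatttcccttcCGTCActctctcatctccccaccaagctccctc

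The full element was found for Sst alone of these markers, with its first base 48 bases before the start, and in 1.15% of all 32851 mouse promoters in windows of the same length. The core was found in 10.5% of promoters and in those of Sst, Cck, Vip and Gad2, at 47, 79 and 33 bases before the start in the last 3. The TATA box letters TATAAA, read on the coding strand, were found for Vip alone of the 9 markers and in 3.8% of promoters. A match of letters is a description and no measured binding, and its part in the relations between markers was not tested.

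Between animals of the same group, Sst and Cck varied together. Relations were computed on log2 CPM as deviations from the group mean over 20 samples, 135 in all, with permutation p-values (two-sided, 100000 permutations within groups) adjusted by the Benjamini-Hochberg method over the 135. Sst and Cck correlated with Pearson's r = 0.78 (permutation p = 0.000680, adjusted 0.0459) and Spearman's rho = 0.67 (permutation p = 0.00362, adjusted 0.0749). The value of r was 0.63 without the 2 samples farthest from the median of Sst (nPM females 3 and nPM males 1), 0.85 in females, 0.67 in males, and 0.64 without the 3 libraries named above. Gad1 and Gad2 correlated with r = 0.73 (permutation p = 0.00268, adjusted 0.0603), rho = 0.68 (permutation p = 0.000440, adjusted 0.0594), r = 0.64 without the 2 farthest samples, and r = 0.74 without the 3 libraries, 0.91 in males and 0.61 in females. Slc32a1 had an r of only 0.38 with Gad1 and 0.43 with Gad2 (rho = 0.44 and 0.55, permutation adjusted p of r = 0.194 and 0.196). Pvalb and Vip had r = 0.65 and rho = 0.61 (permutation p = 0.0107 and 0.0124, adjusted 0.132 and 0.119), with 0.45 without the 2 farthest samples, 0.81 in females and 0.19 in males.

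Several weaker relations changed when the 3 libraries named above were left out. Gad2 had r = -0.51 with Cck and -0.49 with Sst over 20 samples, and 0.22 and 0.03 without the 3 libraries. Likewise, Vip had r = 0.58 with Cck and 0.51 with Sst, and 0.19 with each without them. Over the 45 pairs of markers the median r was 0.15 and 27 values were above 0.

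**Figure D4:**
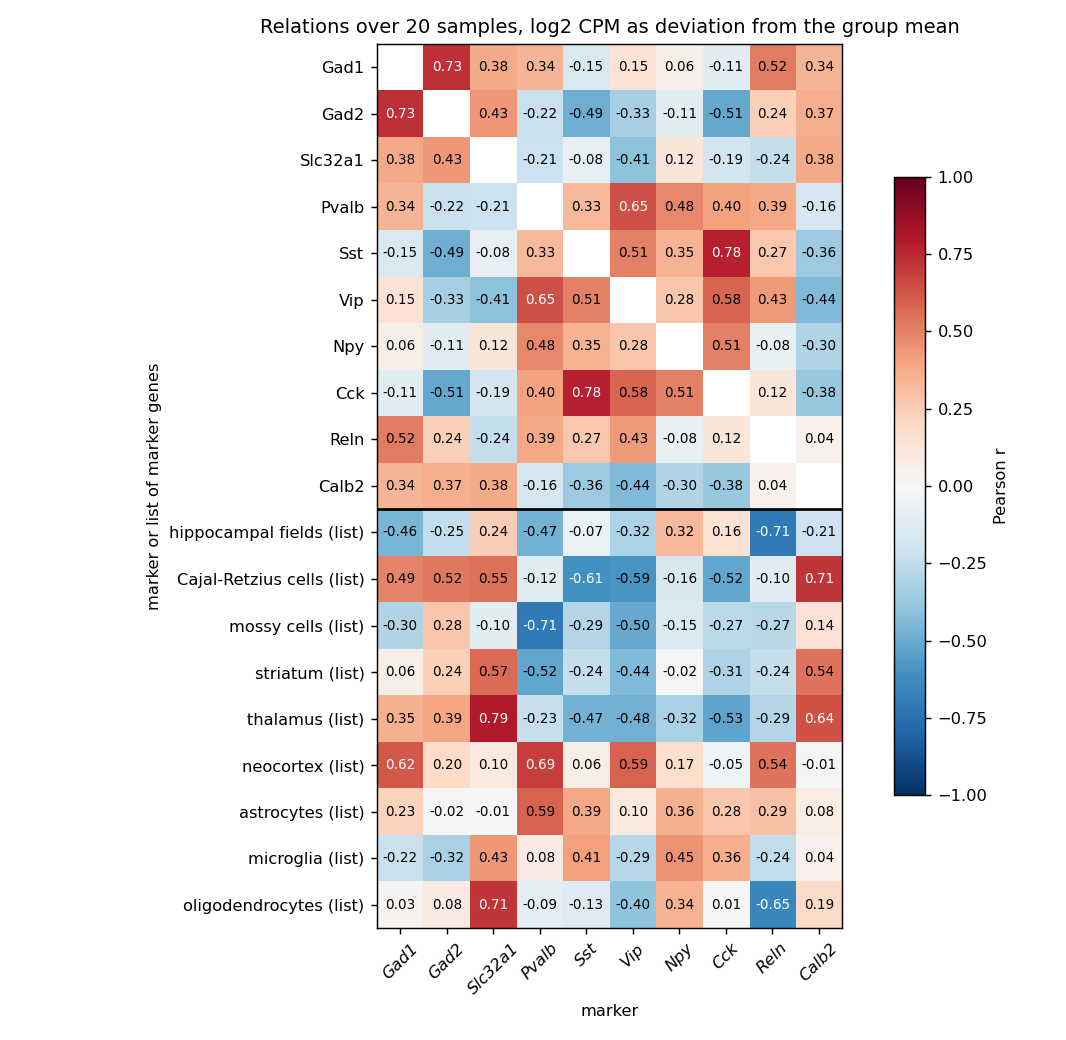
Pearson r over 20 samples, from log2 CPM as deviation from the group mean, between markers (upper square) and between lists of marker genes of cell types or regions and each marker (lower rows). Sst with Cck (0.78), Gad1 with Gad2 (0.73) and the thalamic list with Slc32a1 (0.79) give the darkest red cells, and the hippocampal field list with Reln and the mossy cell list with Pvalb (both -0.71) the darkest blue.

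Some markers varied with genes of other cell types or regions. Slc32a1 correlated with the mean log2 CPM of the 11 thalamic genes (r = 0.79, permutation p = 0.000280, adjusted 0.0378; rho = 0.76, permutation p = 0.000950, adjusted 0.0641), with r = 0.73 without the 2 farthest samples, 0.69 without the 3 libraries, 0.74 in females and 0.86 in males. With the 6 oligodendrocyte genes Slc32a1 had r = 0.71 and rho = 0.66 (permutation p = 0.00238 and 0.00341, adjusted 0.0603 and 0.0749), and 0.47 without control males 1 and nPM females 4. Calb2 followed the 4 Cajal-Retzius genes that passed the filter (r = 0.71, rho = 0.66, permutation p = 0.00265 and 0.00644, adjusted 0.0603 and 0.0869; r = 0.62 without the 2 farthest samples, 0.57 without the 3 libraries), and had r = 0.14 with the list of mossy cell genes. This was not particular to that list, since Calb2 had r = 0.64 with the thalamic and 0.54 with the striatal list. Without the 3 libraries these were 0.48 and 0.60. The Cajal-Retzius list had low summed levels of 4.74 to 27.0 CPM. Its gene Trp73 was highest in nPM females 1 (8.17 CPM), the sample that was also highest in Ttr. The neocortical list correlated with Pvalb (r = 0.69, rho = 0.72, permutation p = 0.00172 and 0.00216, adjusted 0.0603 and 0.0749; r = 0.66 without the 2 farthest samples). It also had r = 0.62 with Gad1 and 0.59 with Vip, and 0.67 and 0.77 without the 3 libraries. Negative relations reached a similar size. The hippocampal field list had r = -0.71 with Reln, the mossy cell list -0.71 with Pvalb and the oligodendrocyte list -0.65 with Reln. Without the 3 libraries these were -0.78, -0.56 and -0.69. The mossy cell list held only 4 genes, with low summed levels of 3.05 to 10.6 CPM, and shares Drd2 with the striatal list. Of the 135 relations, 2 had an adjusted p under 0.05 by r and 0 by both r and rho. Whether neighboring tissue or cell composition set these levels was not tested.

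**Figure D5:**
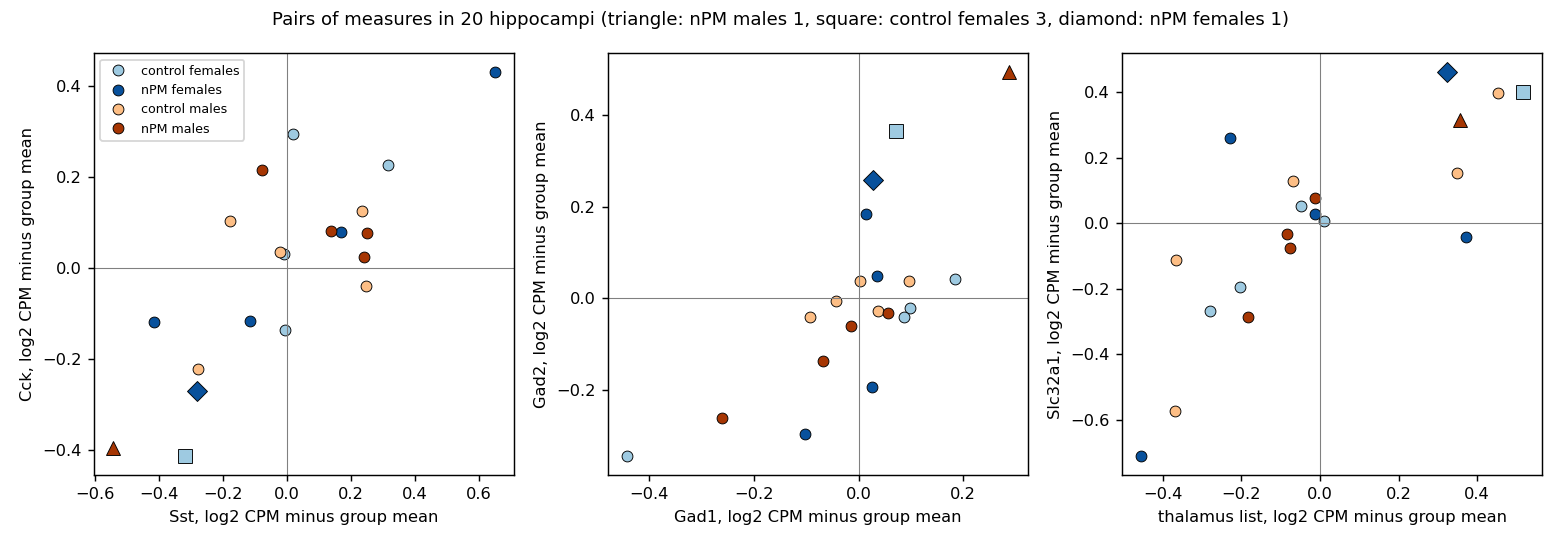
Deviations of log2 CPM from the group mean in 20 samples for Cck against Sst, Gad2 against Gad1, and Slc32a1 against the mean of the thalamic list. Points rise from lower left to upper right in each panel (r = 0.78, 0.73 and 0.79), and nPM males 1 (triangle) lies at the lower left for Cck and Sst but at the upper right for Gad1 and Gad2.

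Genes of the wider GABA system did not pass the threshold with nPM either. At a limma p under 0.005, 0 of 17 genes of GABA transport, metabolism and postsynaptic machinery, 0 of 13 tested peptide and reelin receptors, 0 of 24 other interneuron subtype genes and 0 of 15 tested interneuron transcription factors passed in any of the 4 fits with nPM. In males the smallest p of the GABA pathway list was that of the GABA-B receptor subunit Gabbr1 (0.08, SE 0.063).

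Among receptors for the marker peptides, Sstr4 was at 0.37 in males (SE 0.17), and at 0.53 without nPM males 1, where it passed with an unadjusted limma p of 0.000302 (adjusted p = 0.989). Sstr1 was at -0.36 with sex as a covariate (SE 0.19) and -0.46 in females (SE 0.30), and the reelin receptor gene Lrp8 had the smallest p for the difference between the sexes (0.23, SE 0.12). Of the other subtype genes, those with the smallest p were Crh with sex as a covariate (-0.74, SE 0.28), Rbp4 in males (-0.72, SE 0.24, exact permutation p = 0.0317, n = 5 per group) and the nociceptin gene Pnoc in females (-0.70, SE 0.28, exact permutation p = 0.0556, n = 5 per group) and for the difference between the sexes (0.99, SE 0.39). Without control males 5 or nPM males 4, Rbp4 passed in males with an unadjusted limma p of 0.00388 or 0.00364. Erbb4, a receptor kinase of interneurons and a member of this list that was chosen after its values were seen, lay lower in every nPM male than in every control male (-0.52, SE 0.19), beside 0.662% of all genes without overlap in males. In females Erbb4 overlapped (-0.16, SE 0.17), and the difference between the sexes was -0.36 (SE 0.28). All limma adjusted p-values of the genes named in these lists were 0.963 or above with all samples. Of the transcription factors, those named here are Satb1 in males (-0.37, SE 0.17) and Maf in females (0.22, SE 0.099) and for the difference between the sexes (-0.26, SE 0.15), each with the smallest p in its fit.

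Between males and females, each of the 4 lists had genes past the limma adjusted p of 0.05, in each a smaller share than the 40.4% of all genes tested. Of the 17 GABA pathway genes, 1 was higher and 3 lower in males at a limma adjusted p under 0.05 (median log2 difference 0.06, all genes 0.02). The lower ones were the chloride exporter Slc12a5 (-0.28), the inhibitory synapse adhesion gene Nlgn2 (-0.42) and the GABA-B subunit Gabbr2 (-0.23). Of the 13 receptors tested, 3 were higher and 0 lower at an adjusted p under 0.05, among them Sstr1 (0.74) and the reelin receptor Vldlr (0.29). Of the 24 other subtype genes, 2 were higher and 1 lower: Cnr1, the cannabinoid receptor of Cck cells (0.42), Nxph1 (0.26) and Kcnc1, a potassium channel subunit of fast-spiking cells (-0.42). Of the 15 transcription factors tested, Adarb2, an RNA-editing family gene listed with them as a marker, was lower (-0.36) and no other passed. The neocortical gene Rprm was higher in males as well (0.82, SE 0.21, limma adjusted p = 0.00414).

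Beyond the lists, the genes most like each marker over the 20 samples were found by Pearson's r of the same deviations, given as a description without a test. The closest gene was Gjd2 for Gad1 (r = 0.85), Usp29 for Gad2 (0.83), Poll for Slc32a1 (0.87), Plcxd2 for Pvalb (0.88), Rasal1 for Sst (0.90), Osbpl1a for Vip (0.91), Tspan5 for Npy (0.85), Pip4k2c for Cck (0.85), Kctd8 for Reln (0.91) and A730046J19Rik for Calb2 (0.90). The next closest were Sdr39u1 and Qpct for Gad1, Gpr149 and Kcnip1 for Gad2, Cacna2d2 and Clba1 for Slc32a1, Gls2 and Cbln2 for Pvalb, Syngr3 and Chst8 for Sst, Slc39a10 and Fbxw7 for Vip, Nptx2 and Rtf2 for Npy, Gm3375 and Sept9 for Cck, Fbxo22 and Fam185a for Reln, and Ebf2 and Corin for Calb2. All of these had r of 0.79 to 0.91, values that are high by selection, as they were picked as the highest of all genes searched. They cannot be compared with the highest r between 2 markers (0.78), which came from only 45 pairs.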

How the data were processed

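Whole hippocampal RNA, depleted of ribosomal RNA, had been sequenced for 20 samples. Per the labels and the study's methods, the authors checked reads with FastQC, trimmed them with Trimmomatic, aligned them with HISAT2 to mm10 and counted reads per gene with featureCounts (1.5.0-p3, Gencode M11). The deposited values used here are these raw counts and the gene lengths beside them. A deposited table of mean RPKM per gene, an average over all samples by the authors, served only to check the counts (largest difference 4.91e-11). Strand use in counting is not given in the sources used here.

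Genes with a count of 10 in enough samples and a total of 15 were kept (filterByExpr of edgeR 4.0.16; 19797 of 48709 genes), and library sizes were scaled by TMM. All genes kept entered limma-voom fits (limma version 3.58.1 in R 4.3.3), with exposure and sex over 20 samples, with exposure within each sex, and with their interaction. The thresholds were an unadjusted p of 0.005 for nPM, as in the study, and a Benjamini-Hochberg adjusted p of 0.05 for sex. log2 CPM added 0.5 counts. Single markers were also tested within a sex by a two-sided exact permutation test over 252 groupings. Alternatives were the edgeR quasi-likelihood test, DESeq2 1.42.0, RLE scaling, no filter, protein-coding genes only (15007), sample quality weights, a replicate block, age as a covariate, 1 fit of the 4 groups, each sample left out and, added after the data were seen, 3 libraries left out and the exon lengths of Gencode M21. The scripts were tested on simulated data.

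The markers and all gene lists were chosen with earlier results of these data known. The genes named are all 10 markers, list genes with a limma p under 0.005 in any fit, the smallest p of each GABA or interneuron list in each fit, and the 3 genes nearest to each marker. Some genes that this rule selects are not reported here. Promoter sequences came from RefSeq (GRCm38.p6).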

Additional observations from a re-analysis of the deposited data

Results flagged for a closer look

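In groups of 5, a sample was singled out where its gap to the nearest other sample took more than 0.71 of the range of the group. This held for 4 of 40 groups of marker and exposure, where chance gives about 2. Gad1 was lowest in control females 5 (233 CPM, 0.819 of the range) and in nPM females 5 (258 CPM, 0.855 of the range). Vip was lowest in nPM females 1 (8.03 CPM, 0.722 of the range), the sample with the highest striatal marker level. Reln was highest in control males 1 (243 CPM, 0.714 of the range), the sample with the lowest summed level of the hippocampal field genes (1102 CPM).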

How the results depend on the processing

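Of 460 fits of a marker under another setting, 16 gave the other sign, 0 newly passed the threshold and 4 no longer passed. Of 800 fits with 1 sample left out, 55 gave the other sign, 4 newly passed and 18 no longer passed. With sample quality weights, the log2 fold change was 0.029 for Sst with sex as a covariate. In males it was then -0.0013 for Gad1, 0.022 for Sst, -0.022 for Npy and 0.044 for Reln, and in females 0.0038 for Pvalb and 0.030 for Sst. It was 0.0045 for Erbb4 in the difference of the nPM effects, and -0.013 for Pvalb and -0.0068 for Reln between the sexes. DESeq2 gave 0.0020 for Sst in females. Without control females 3, nPM females 1 and nPM males 1, Sst was at 0.016 with sex as a covariate, 0.063 in males and 0.10 in the difference, Gad1 at -0.063 in males, and Pvalb at 0.0044 in females and -0.089 between the sexes, while r was 0.025 for Gad2 with Sst and 0.22 for Gad2 with Cck. With all samples these 2 correlations were -0.49 and -0.51 and the difference of Erbb4 was -0.36. The cause was not tested. Genes with a limma p under 0.005 numbered 28 with sex as a covariate, and 43 with DESeq2, 71 without the filter and 53 with quality weights. In males they numbered 41, and 113 with DESeq2 and 126 without the filter. In females they numbered 17, and 28 with edgeR, 55 with DESeq2, 89 without the filter, 41 with weights and 33 without the 3 libraries. For the difference they numbered 43, and 66 with edgeR, 89 with DESeq2, 142 without the filter and 22 over protein-coding genes. Markers with p under 0.05 in females numbered 0 with DESeq2 and with age as a covariate. Markers that differed by sex numbered 1 without the filter, with weights, with the replicate block and without the 3 libraries.

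With 1 sample left out, genes with p under 0.005 ranged from 18 to 46 with sex as a covariate, 22 to 78 in males, 9 to 45 in females and 24 to 84 for the difference, and markers with p under 0.05 from 0 to 1, 0 to 1, 0 to 2 and 0 to 3. Markers with p under 0.005 ranged from 0 to 1 in females, and those that differed by sex from 0 to 3. Estimates that changed sign ranged as follows. With sex as a covariate they were -0.089 to 0.066 for Slc32a1, -0.14 to 0.0072 for Pvalb, -0.13 to 0.012 for Sst, -0.094 to 0.038 for Npy and -0.10 to 0.018 for Cck. In males they were -0.063 to 0.074 for Gad1, -0.14 to 0.063 for Sst, -0.073 to 0.17 for Npy, -0.14 to 0.091 for Reln and -0.41 to 0.17 for Calb2. In females they were -0.18 to 0.15 for Pvalb, -0.21 to 0.056 for Sst, -0.35 to 0.10 for Vip, -0.25 to 0.020 for Npy and -0.26 to 0.0047 for Erbb4. In the difference they were -0.27 to 0.070 for Pvalb, -0.13 to 0.13 for Sst and -0.035 to 0.20 for Reln, and between the sexes -0.038 to 0.12 for Slc32a1 and -0.13 to 0.00046 for Npy.

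Same-numbered samples of control and nPM groups had correlations of -0.36 to 0.16 over 10 pairs, with 3 over 0.1, and 0 controls lay nearest to their own number, so that the numbers were not taken as pairing. With the replicate block, genes with p under 0.005 numbered 20, 35, 21 and 43 in the 4 nPM fits, Gad2 in females had a limma p of 0.0163, and Cck between the sexes an adjusted p of 0.0554. Depth was no limit for these markers, whose lowest count was 100 in any sample.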
